A study of Homo sapiens with 6 samples.

Results

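The transcripts described here come from 10 long noncoding snoRNA host genes, listed by their symbols: SNHG1, SNHG5, SNHG6, SNHG7, SNHG8, SNHG12, SNHG15, SNHG16, GAS5 and ZFAS1. All 10 were found among the 57781 gene rows of the count table, and all 10 passed the filter on low counts. RNA was sequenced from A549, an established human lung adenocarcinoma line, in 2 groups of 3 libraries. The vector group carried the control vector, with the METTL3 gene labelled wild type. The shMETTL3 group had METTL3 knocked down. Both groups were grown in DMEM with fetal bovine serum and antibiotics. METTL3 is the catalytic subunit of the complex that writes N6-methyladenosine (m6A) into RNA. Each group represents 1 cell line, and the labels name neither the hairpin sequences nor separate cultures, so that p-values measure the spread between these libraries, which may be technical. The comparison asks which host transcripts differed in level when METTL3 was lowered.

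Small nucleolar RNAs (snoRNAs) guide the chemical modification of ribosomal RNA. Box C/D snoRNAs direct 2′-O-methylation and box H/ACA snoRNAs direct pseudouridylation. In human cells most of them are cut from the introns of a host transcript after splicing. Many hosts code for proteins of the translation machinery, whereas in the genes described here the introns carry the snoRNA and the spliced exons form a noncoding RNA. Several of these exonic RNAs begin with a 5′ terminal oligopyrimidine (TOP) tract, as ribosomal protein mRNAs do. Some, GAS5 among them, are taken up by ribosomes and removed by nonsense-mediated decay.

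The starts of the genes were compared first, because a TATA box and a run of C and T at the start are features that hosts share with ribosomal protein genes. Promoter sequences from RefSeq (GRCh38.p14) matched 8 of the 10 genes by symbol. On the strand of the gene, 5 of the 8 had TATAA beginning 20 to 40 bases before the start, against 3.91% of the 35116 promoters of the same length. A run of at least 5 C or T that opened with C and began within 5 bases of the start was found in 6 of the 8, against 21.1% of all promoters. The E-box CACGTG was in 1 of the 8, against 7.26%, anywhere in the 300 bases. Each promoter belongs to 1 RefSeq start of its gene. GAS5 has 91 annotated transcripts, and other starts were not examined, so that its result holds for the matched start only. The 5 promoters with both features are given from 45 bases before the start, with both features in capitals. That of GAS5, whose matched start had neither, is given in the same way.
SNHG5 (chr6:85678709-85678778, minus strand): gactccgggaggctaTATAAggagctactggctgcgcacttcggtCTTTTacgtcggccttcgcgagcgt
SNHG7 (chr9:136728160-136728229, minus strand): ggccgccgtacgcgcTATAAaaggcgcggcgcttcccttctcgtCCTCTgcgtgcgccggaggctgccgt
SNHG8 (chr4:118278717-118278786, plus strand): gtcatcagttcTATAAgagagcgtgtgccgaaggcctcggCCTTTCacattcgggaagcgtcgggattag
SNHG12 (chr1:28581849-28581918, minus strand): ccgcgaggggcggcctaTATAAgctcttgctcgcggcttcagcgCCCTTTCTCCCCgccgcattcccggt
ZFAS1 (chr20:49278597-49278666, plus strand): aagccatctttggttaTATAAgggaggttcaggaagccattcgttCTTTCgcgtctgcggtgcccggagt
GAS5 (chr1:173869021-173869090, minus strand): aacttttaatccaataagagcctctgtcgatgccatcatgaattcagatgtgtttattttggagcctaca

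The snoRNAs carried by ZFAS1 show what such an intron holds. SNORD12, SNORD12B and SNORD12C lie inside the gene, outside the exons of its canonical transcript, and were read from GRCh37. SNORD12 and most of SNORD12B also lie within exons of other annotated ZFAS1 transcripts. Each has box C, TGATGA, near its 5′ end and box D, CTGA, near its 3′ end, given in capitals. These boxes are bound by the core proteins of the particle.
SNORD12 (chr20:47897220-47897309, plus strand): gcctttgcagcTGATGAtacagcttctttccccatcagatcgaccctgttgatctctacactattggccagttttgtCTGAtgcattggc
SNORD12B (chr20:47896856-47896946, plus strand): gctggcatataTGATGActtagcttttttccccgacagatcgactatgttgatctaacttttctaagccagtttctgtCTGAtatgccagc
SNORD12C (chr20:47895477-47895565, plus strand): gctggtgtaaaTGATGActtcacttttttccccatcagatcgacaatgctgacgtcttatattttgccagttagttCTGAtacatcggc

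Library totals ran from 17586295 to 18858098 counts in the vector group and from 14931426 to 19108928 in the shMETTL3 group. Levels are given as CPM, the counts of a gene in a library brought to 1000000 counts, after TMM scaling between libraries. Differences are given as log2FC, the base-2 logarithm of the shMETTL3 level over the vector level, and SE is its standard error. METTL3 stood at 49.4, 50.6 and 49.5 CPM in the vector libraries and at 18.9, 19.9 and 19.3 CPM in the shMETTL3 libraries, 38.8% of the vector level (log2FC -1.36, edgeR adjusted p = 4.57e-16). The 6 epithelial and adenocarcinoma markers summed to 14200 to 14900 CPM in vector and 6700 to 7190 CPM in shMETTL3 libraries, with 5 of the 6 lower and KRT7 higher. The 5 leukocyte markers summed to 0.299 to 0.981 CPM and 5.84 to 6.74 CPM, nearly all of it CD14, with CD3E and MS4A1 at 0 in every library. The 5 fibroblast markers summed to 6.41 to 9.68 CPM and 14 to 14.4 CPM. The 3 endothelial markers with a row summed to 0 to 0.123 CPM and 1.40 to 1.95 CPM, with VWF at 0 in every library. Mitochondrial genes took 17.6% to 19.5% of the counts in vector and 15.8% to 17.1% in shMETTL3 libraries. The part of these differences in the results on the host genes was not tested.

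The host transcripts moved little and in both directions. In bulk RNA, fewer cells holding a transcript and less of it per cell cannot be told apart. SNHG5 and SNHG8 fell by about the same extent, SNHG6 fell slightly, and SNHG7 and SNHG15 rose. GAS5, ZFAS1, SNHG1, SNHG12 and SNHG16 did not pass the test. Thus 5 of the 10 were called changed at an adjusted p under 0.05 (quasi-likelihood F test of edgeR, adjusted by Benjamini and Hochberg's method over the 15125 genes tested), where 66.6% of all tested genes were called. Of these, 2 were higher, against 33.7% of all genes, and 3 were lower, against 32.9%. For 4 of the 10, the CPM ranges of vector and shMETTL3 libraries were apart without overlap, against 69.4% of all genes. The median log2FC of the 10 was -0.04 and that of all tested genes 0.00. The former was 0.01 without vector replicate 2, -0.10 without vector replicate 3 and -0.08 without shMETTL3 replicate 3. The median size of the change, regardless of sign, was 0.18 on the log2 scale for the 10 and 0.41 for all tested genes.

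**Figure D1:**
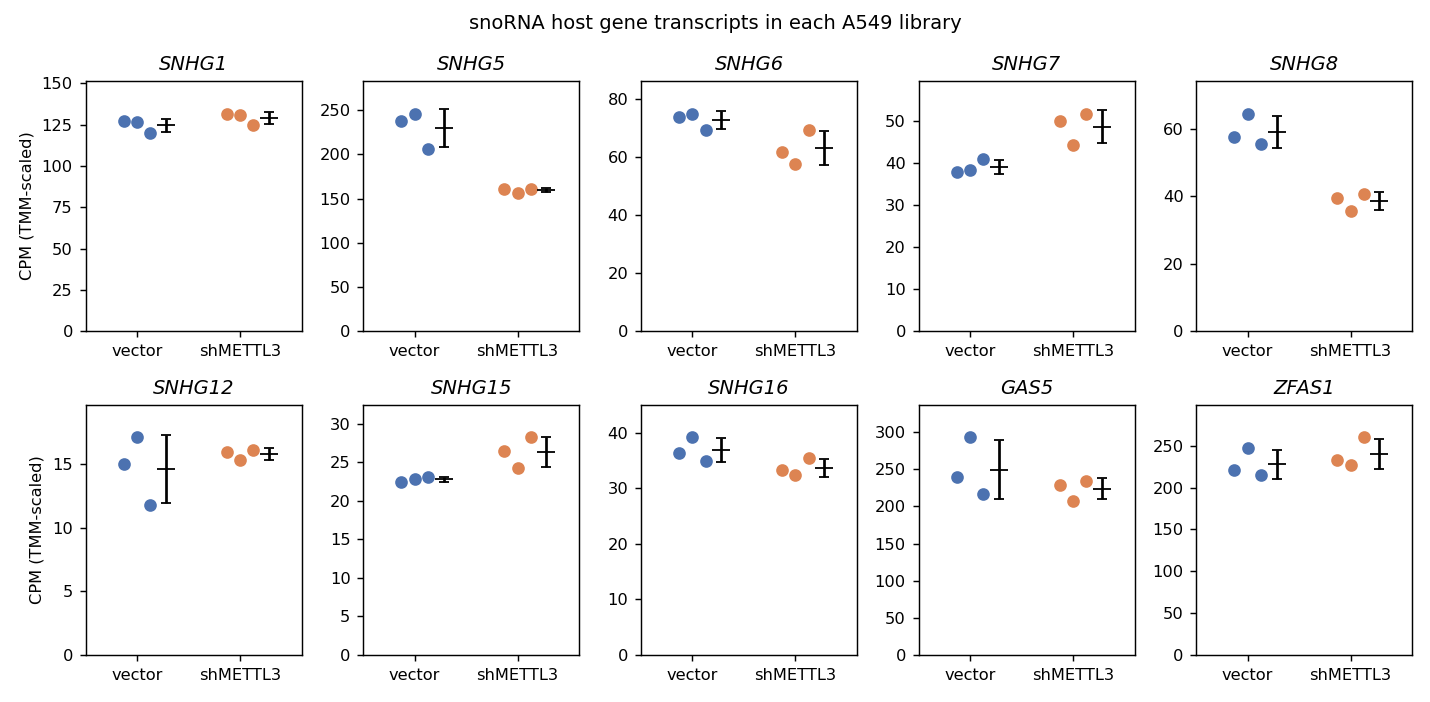
TMM-scaled CPM of the 10 host transcripts in each library, with vector libraries in blue and shMETTL3 libraries in orange. Points are single libraries, the black marks are the mean and SD of 3 libraries, and every axis starts at 0. SNHG5 and SNHG8 sit lower and SNHG7 and SNHG15 higher in all shMETTL3 libraries, while the groups overlap for the other 6.

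SNHG8 carries the H/ACA snoRNA SNORA24. The gene lies on the plus strand at chr4:119199858-119206471 of GRCh37. Its level was 57.4, 64.4 and 55.3 CPM in vector replicates 1, 2 and 3 and 39.4, 35.7 and 40.6 CPM in shMETTL3 replicates 1, 2 and 3. No shMETTL3 library reached the level of any vector library. The mean fell from 59.0 ± 4.77 to 38.6 ± 2.55 CPM (SD, n = 3 libraries each), to 65.3% of the vector level. The log2FC of -0.62 (SE 0.0678, edgeR adjusted p = 7.39e-09) was the largest in size among the 10 host genes.

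SNHG5, on the minus strand at chr6:86360209-86388650, carries the C/D snoRNAs SNORD50A and SNORD50B. It stood at 237, 246 and 206 CPM in the vector libraries and at 161, 157 and 160.5 CPM in the shMETTL3 libraries. The shMETTL3 libraries lay close together, and all were below the lowest vector library. The mean was 229.6 ± 21.1 CPM in vector and 159 ± 2.46 CPM in shMETTL3 libraries (SD, n = 3), which is 69.4% of vector. This gave a log2FC of -0.53 (SE 0.0574, edgeR adjusted p = 6.31e-09). SNHG5 was among the most abundant of the host transcripts, so that its fall was also the largest in CPM.

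SNHG6 carries the C/D snoRNA SNORD87 and is encoded at chr8:67832796-67838633, on the minus strand. Its level was 73.9, 75.0 and 69.3 CPM in the vector group, against 61.9, 57.8 and 69.5 CPM in the shMETTL3 group. The groups touched, since shMETTL3 replicate 3 was above vector replicate 3. The mean was 72.7 ± 3.04 CPM in vector and 63.1 ± 5.95 CPM in shMETTL3 libraries (SD, n = 3), with a log2FC of -0.21 (edgeR adjusted p = 0.00500). Without shMETTL3 replicate 2, which had the lowest level, the log2FC was -0.15 and the adjusted p 0.0745.

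SNHG7 rose most among the 10. It lies on the minus strand at chr9:139615818-139622636 and carries H/ACA snoRNAs of the SNORA17 family. The vector libraries held 37.8, 38.4 and 41.0 CPM and the shMETTL3 libraries 50.0, 44.4 and 51.8 CPM, without overlap. The mean rose from 39.0 ± 1.72 to 48.7 ± 3.85 CPM (SD, n = 3), to 124.7% of vector, and the log2FC was 0.32 (SE 0.0673, edgeR adjusted p = 0.000169). SNHG7 and SNHG8, whose printed promoters both hold the TATAA and the run of C and T, thus changed in opposite directions.

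SNHG15, the host of the H/ACA snoRNA SNORA9, is on the minus strand at chr7:45022618-45026560. It had 22.5, 22.8 and 23.1 CPM in the vector group, against 26.5, 24.3 and 28.2 CPM in the shMETTL3 group. All shMETTL3 libraries were above all vector libraries, the nearest of them by little. Its log2FC was 0.20 (SE 0.0759, edgeR adjusted p = 0.0198), from 22.8 ± 0.328 to 26.3 ± 1.97 CPM (SD, n = 3). The call was not stable. DESeq2 gave an adjusted p of 0.0556, and edgeR gave 0.0574 without vector replicate 1, 0.0538 without shMETTL3 replicate 1 and 0.118 without shMETTL3 replicate 3.

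GAS5 (growth arrest-specific 5) was first found as a transcript that accumulates in growth-arrested cells, and its introns hold a row of C/D snoRNAs. It lies on the minus strand at chr1:173827697-173838020. Its level was 239.5, 293 and 216 CPM in the vector group, against 229, 208 and 234 CPM in the shMETTL3 group. The vector libraries differed from each other more than the groups did. For vector replicate 2 the exact 95% Poisson interval of 285 to 301 CPM, which covers counting error only, lay above those of the other libraries. The log2FC was -0.16 (95% interval -0.31 to -0.01), with an adjusted p of 0.0561 from edgeR that just missed the threshold. It depended on the libraries and on the fit. The adjusted p was 0.033 without vector replicate 1, at -0.19, 0.000342 without vector replicate 3, at -0.26, and 0.0482 without shMETTL3 replicate 3, at -0.19. Without a filter on low counts it was 0.00352. Without vector replicate 2, the highest library, the log2FC was -0.03.

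ZFAS1 is transcribed from the plus strand at chr20:47894715-47916137, antisense to the 5′ end of ZNFX1, and carries the 3 SNORD12 snoRNAs printed above. It stood at 221, 247 and 215.5 CPM in the vector libraries and at 233.5, 227 and 260.1 CPM in the shMETTL3 libraries. The groups overlapped. With a log2FC of 0.07 (95% interval -0.05 to 0.19, edgeR adjusted p = 0.267), ZFAS1 did not pass. With single libraries left out its log2FC ran from 0.01, without shMETTL3 replicate 3, to 0.13, without vector replicate 2 (edgeR adjusted p = 0.878 and 0.06).

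SNHG1, on the minus strand at chr11:62619450-62623425, carries a series of C/D snoRNAs from SNORD22 to SNORD31. It had the narrowest interval of the 10, with 127.5, 126 and 120.0 CPM in the vector group, against 132, 131 and 125.0 CPM in the shMETTL3 group. SNHG1 had a log2FC of 0.05 (95% interval -0.05 to 0.16, edgeR adjusted p = 0.384). The ranges overlapped, and vector replicate 3 was the lowest library.

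SNHG16 and SNHG12 had lower counts. SNHG16, which carries the SNORD1 snoRNAs at chr17:74553809-74667067 on the plus strand, had 36.3, 39.1 and 34.9 CPM in the vector group, against 33.2, 32.4 and 35.5 CPM in the shMETTL3 group. The groups overlapped through shMETTL3 replicate 3 and vector replicate 3, and the log2FC was -0.13 (95% interval -0.27 to 0.01, edgeR adjusted p = 0.0983). Without vector replicate 3 it was -0.17, with an adjusted p of 0.026. SNHG12, which carries SNORD99 and H/ACA snoRNAs at chr1:28905050-28909644 on the minus strand, was the least counted, with 192 to 309 counts per library. Its level was 14.99, 17.12 and 11.77 CPM in the vector group, against 16.0, 15.3 and 16.1 CPM in the shMETTL3 group. All shMETTL3 libraries lay between vector replicates 3 and 2. The log2FC was 0.11 (95% interval -0.11 to 0.33, edgeR adjusted p = 0.363), and -0.03 without vector replicate 3, the lowest library.

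Together the 10 transcripts took 0.0912% to 0.111% of the counts in the vector libraries, against 0.0978% to 0.109% in the shMETTL3 group. GAS5, SNHG5 and ZFAS1 made up most of them. Within this sum, a share does not depend on how libraries are scaled against each other. The share of SNHG5 was 21.3% ± 0.784 (SD, n = 3) in vector and 16.3% ± 0.554 in shMETTL3 libraries. That of SNHG8 was 5.49% ± 0.0971 and 3.94% ± 0.0928. Since the shares add up to the whole, a fall of 1 share raises the others. That of ZFAS1 was 21.2% ± 0.512 and 24.5% ± 0.870, although its CPM ranges overlapped, and that of SNHG7 was 3.65% ± 0.436 and 4.97% ± 0.181. GAS5 had 23.1% ± 1.74 and 22.8% ± 0.521, and SNHG16 had 3.42% ± 0.0878 and 3.45% ± 0.0579.

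The contrast between the largest fall and the largest rise, picked after the values were seen, can be read within each library. There were 1.52, 1.68 and 1.35 SNHG8 counts per SNHG7 count in the vector libraries against 0.788, 0.804 and 0.785 in those of the shMETTL3 group. The ratio was lower in each shMETTL3 library than in any vector library. It is a ratio of counts, not of levels per length. The difference of the log2 ratio was -0.93. An exact permutation test, two-sided, returned p = 0.1, which no division of 6 libraries into 3 and 3 can go below, and is given as a description because the pair was chosen for its difference.

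Levels of different genes can be compared only per transcript length, and the annotated lengths leave the order uncertain. By the length of the canonical transcript, GAS5 came first in the vector libraries with 324.9 ± 51.3 CPM per kb (SD, n = 3), followed by SNHG5 with 174.5 ± 16.0, SNHG1 with 107 ± 3.51, SNHG16 with 73.9 ± 4.31, ZFAS1 with 50.4 ± 3.76 and SNHG6 with 39.9 ± 1.67. SNHG7 with 16.6 ± 0.730, SNHG8 with 9.58 ± 0.773, SNHG12 with 7.82 ± 1.44 and SNHG15 with 7.60 ± 0.109 CPM per kb came last. The levels of SNHG12 and SNHG15 differed by less than the SD of SNHG12. By the median length of the annotated transcripts, GAS5 with 341 and ZFAS1 with 332 CPM per kb were close together in the vector libraries, and in the shMETTL3 libraries their order was the reverse, with 306 and 350. The canonical transcript of ZFAS1 has 4526 bases and its median transcript 686. SNHG8, with 6166 and 489 bases, moved from rank 8 to rank 5, and SNHG16, with 498 and 2459 bases, from rank 4 to rank 9.

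The direction of small changes rested on the scaling between libraries. With scaling by library size alone, all tested genes had their median log2FC at 0.18 in place of 0.00, with 6750 called higher and 3509 lower in place of 5090 and 4977, and the 10 host genes moved with it. Then 7 of the 10 were called, 5 higher and 2 lower, in place of 2 higher and 3 lower. SNHG1, ZFAS1 and SNHG12 were called higher at 0.23, 0.25 and 0.28, all close to that median. SNHG6 lost its call at -0.03, and GAS5 and SNHG16 stood at 0.01 and 0.05. SNHG5 at -0.35, SNHG8 at -0.44, SNHG7 at 0.49 and SNHG15 at 0.38 kept their direction and a p under the threshold. RLE and upper-quartile scaling each called the same number as TMM, 2 higher and 3 lower.

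**Figure D2:**
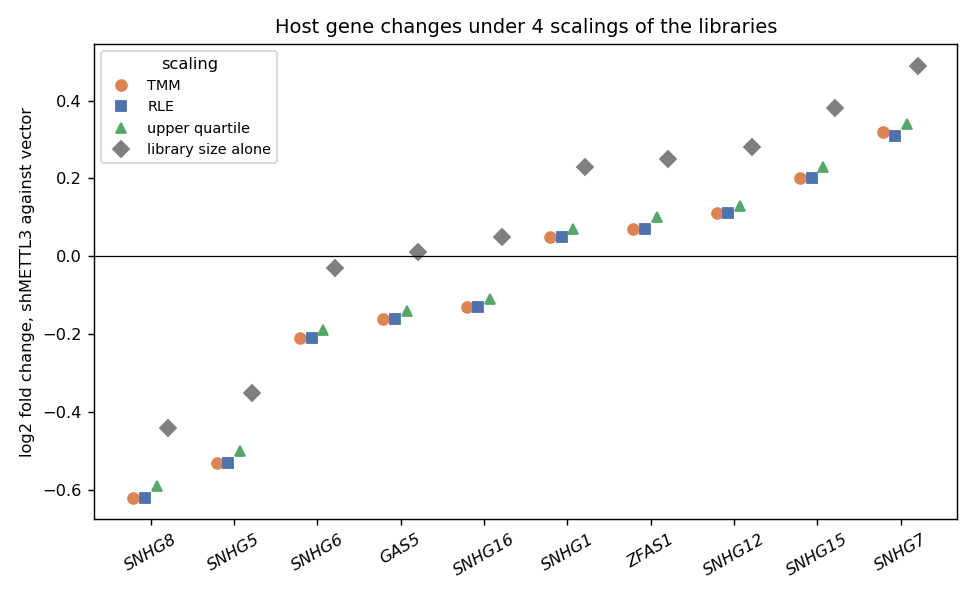
Log2FC of each host gene, shMETTL3 against vector, under 4 scalings of the libraries. TMM, RLE and upper-quartile values lie close together, and library size alone (grey diamonds) shifts all 10 genes upwards, which takes GAS5 from -0.16 to 0.01 and SNHG16 from -0.13 to 0.05.

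Genes that start close to a host gene on the opposite strand were compared with it. In the annotation of GRCh37, 4 such genes start within 1000 bases, and 3 of them have a row of counts. ZNFX1, which encodes an antiviral RNA helicase and starts 248 bases from the start of ZFAS1, rose from 92.7 ± 2.94 to 127 ± 4.89 CPM (SD, n = 3; log2FC 0.45, edgeR adjusted p = 2.54e-08), while ZFAS1 was at 0.07. SLC3A2, which encodes the heavy chain of amino acid transporters and starts 51 bases from SNHG1, was at -0.13 (adjusted p = 0.0189), while SNHG1 was at 0.05. ZBTB37, a zinc finger gene whose start lies 800 bases from that of GAS5, was at 0.12 (adjusted p = 0.327). The lower call, that of SLC3A2, was absent with upper-quartile scaling and without shMETTL3 replicate 1 or 3, where 1 neighbour was called higher and 0 lower. With library size alone 2 neighbours were called higher and 0 lower, and SNHG1 and ZFAS1 were themselves called higher. The difference between the 2 genes of a pair was not tested.

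Exons of 7 of the 10 host genes overlap exons of a gene on the opposite strand. Whether htseq counted by strand is not stated, so that reads there may have been assigned to either gene or to neither. Overlaps with a canonical transcript of over 1000 bases included those of SNHG8 with PRSS12 (2487 bases), SNHG6 with MCMDC2 (1488 bases) and SNHG7 with DIPK1B (1094 bases). PRSS12, which encodes a serine protease, had 207, 215 and 177 counts in vector and 62, 80 and 65 counts in shMETTL3 libraries (log2FC -1.65, edgeR adjusted p = 2.21e-11), against 645 to 1076 counts for SNHG8. MCMDC2 had 29 to 44 counts per library. The part of these overlaps in the values of the host genes was not tested.

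The snoRNAs themselves were hardly counted. Of 35 snoRNAs listed for the 10 host genes, 23 had a row, and 16 of these were at 0 in all 6 libraries, where 3 counts in a library correspond to 0.150 to 0.189 CPM. All 379 rows named SNORD or SNORA together held 313 to 396 counts per library. SNORD12B, printed above, had 7, 7 and 7 counts in vector and 6, 7 and 6 counts in shMETTL3 libraries, while SNORD12 had none and SNORD12C 1 in all. SNORD99 in SNHG12 had 5, 6 and 5 counts and 4, 5 and 3 counts. SNORD78 had 9, 5 and 9 counts and 2, 12 and 7 counts, but its name has 3 annotated copies, 1 of them in GAS5. SNORA9 had 2, 9 and 1 counts and 4, 0 and 0 counts, and none of the 4 annotated copies of that name lies in SNHG15 in this annotation. None passed the filter on low counts. Without a filter edgeR tested 7 and called 0, with 0 at an unadjusted p under 0.05. A difference in snoRNA level was thus not detectable from these counts. SNORD12, most of SNORD12B and the copy of SNORD78 in GAS5 lie in annotated exons of their hosts. Whether depth, the capture of short RNAs in library preparation or the assignment of reads shared with such exons set the low counts was not tested.

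Beyond the 10 genes, 14 further noncoding transcripts were listed as snoRNA hosts, and 11 of them passed the filter. Here 6 of the 11 were called, 1 higher and 5 lower, where 66.6% of all tested genes were called, 33.7% higher and 32.9% lower. They had a median log2FC of -0.40, and with library size alone 3 were higher and 5 lower. SNHG19, the host of SNORD60, fell from 656, 660 and 571 counts to 256, 210 and 209, a log2FC of -1.60 (edgeR adjusted p = 4.32e-15). SNHG4 was at -0.93, SNHG3 at -0.76 and SNHG14, the long transcript of the Prader-Willi region, at -0.71 (adjusted p = 9.48e-13, 5.91e-12 and 2.85e-11). DANCR, named after its values were seen, was the remaining lower gene at -0.49. SNHG11 was the 1 that rose, at 0.64 (adjusted p = 4.31e-05). None of the 10 host genes fell as far as SNHG19, SNHG4, SNHG3 or SNHG14, or rose as far as SNHG11.

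**Figure D3:**
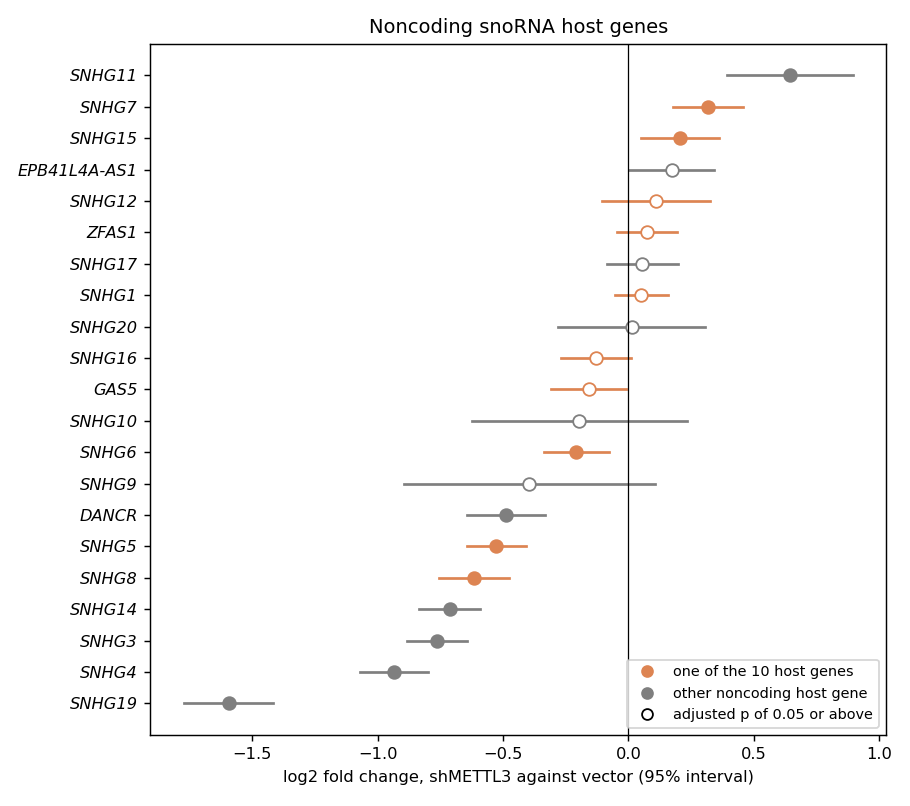
Log2FC, shMETTL3 against vector, of the 10 host genes (orange) and 11 other noncoding host genes (grey), with 95% intervals from the edgeR fit. Open points had an adjusted p of 0.05 or above. The 10 host genes lie between -0.62 and 0.32, inside the span from -1.60 for SNHG19 to 0.64 for SNHG11.

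Of 40 protein-coding hosts listed, 32 were called, 26 lower and 6 higher, against the same 66.6%, 32.9% and 33.7% of all tested genes, with a median log2FC of -0.49, and with library size alone 21 were lower and 9 higher. Among their 22 ribosomal protein genes, 19 were lower and 1 higher, with a median of -0.65. Among the other 18, 7 were lower, 5 higher and 6 did not pass, with a median of -0.04. Processed copies of ribosomal protein genes elsewhere in the genome can take part of their reads. The largest falls were those of RPL13A at -1.10, RPL30 at -1.02, RPL3 at -0.99 and EEF2, the elongation factor that moves the ribosome along the mRNA, at -0.90 (edgeR adjusted p = 5.59e-17, 9.48e-11, 3.04e-15 and 1.84e-14). The largest rises were those of EIF5 at 0.96, DKC1 at 0.77, NOP56 at 0.59 and RPL10 at 0.35 (adjusted p = 4.61e-15, 3.62e-13, 2.43e-11 and 1.18e-06). No host gene was tested against the ribosomal protein genes.

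Transcripts of the proteins that assemble with snoRNAs changed in both directions. Of 18 listed, 16 were called, 8 higher and 8 lower, against 66.6%, 33.7% and 32.9% of all tested genes, with a median of 0.04. The genes of both core particles were split. For box C/D, NOP58 at 0.68 and NOP56 at 0.59 rose, while fibrillarin (FBL), the methyltransferase, fell at -0.63 (edgeR adjusted p = 6.43e-11, 2.43e-11 and 2.4e-11). For box H/ACA, DKC1, the pseudouridine synthase, rose at 0.77 and NHP2 fell at -0.82 (adjusted p = 3.62e-13 and 1.22e-10). Of the assembly factors, RPAP3 rose at 0.76, while RUVBL2 at -0.65 and PIH1D1 at -0.60 fell (adjusted p = 8.99e-10, 9.68e-11 and 4.54e-10). NOP56 and DKC1 also stand on the list of protein-coding hosts.

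Factors of nonsense-mediated decay and of the exon junction complex act on spliced host RNAs such as GAS5. Their transcripts were higher in 9 of 15 cases, lower in 1, and did not pass in 5. Of all tested genes, 33.7% were higher, 32.9% lower and 66.6% called in either direction. The median log2FC of the 15 was 0.21. With scaling by library size alone 14 were higher and 1 lower. UPF3B rose most, from 8.73 ± 0.252 to 23.1 ± 1.59 CPM (SD, n = 3; log2FC 1.41, edgeR adjusted p = 2.35e-13), followed by MAGOH at 0.42, SMG8 at 0.34 and RBM8A at 0.30 (adjusted p = 4.18e-05, 4.65e-05 and 2.12e-05). UPF1, the central helicase, was at 0.10 with an adjusted p of 0.12. UPF3B, DKC1 and RPL10 lie on chromosome X, where the median log2FC of the 446 tested genes matched to the annotation was 0.74, and none of the 10 host genes does.

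**Figure D4:**
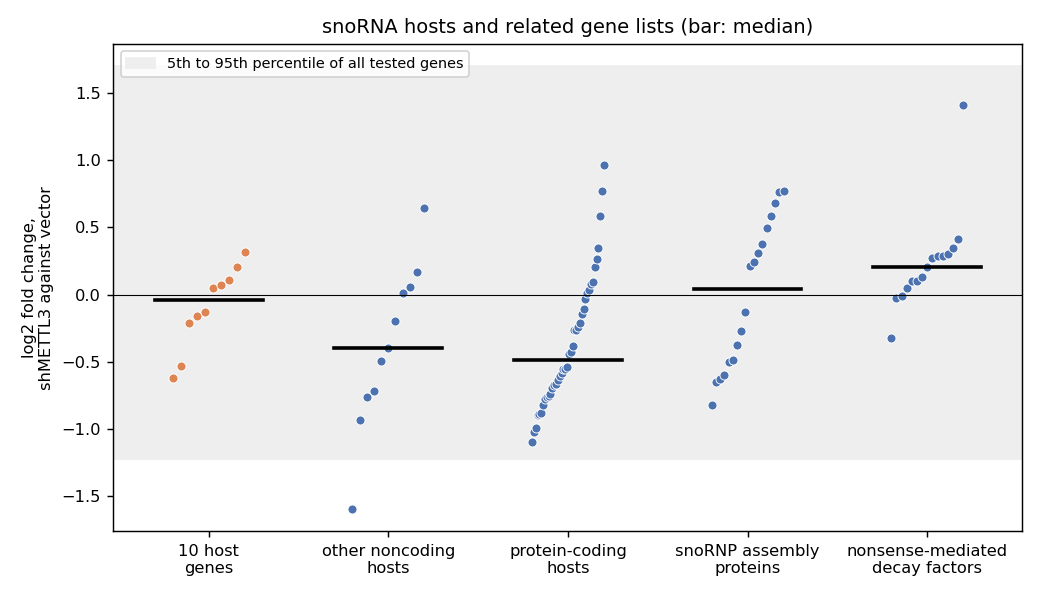
Log2FC values, shMETTL3 against vector, of the 10 host genes (orange) and of 4 related gene lists (blue), each point a gene, the black bars medians, and the grey band the 5th to 95th percentile of all tested genes, from -1.22 to 1.70. The medians are -0.04 for the 10 host genes, -0.40 for other noncoding hosts, -0.49 for protein-coding hosts, 0.04 for snoRNP assembly proteins and 0.21 for decay factors.

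The mean profile of the 10 host genes over the 6 libraries, in log2 CPM centred on each gene's mean, was nearly flat. The 5 tested genes closest to it by Euclidean distance were PDCD5, MCTP1, LEMD3, PSMB5 and ORC3, at distances of 0.0449 to 0.0746 and log2FC values of -0.14 to -0.07.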

How the data were processed

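RNA-seq of A549 cells, 3 vector and 3 shMETTL3 libraries, was grouped by the sample titles. The authors mapped reads to hg19 with HISAT2 and counted them with htseq, and the deposited values are raw counts per gene symbol. The paper and the submitters' processing notes name different versions, and the notes give cutadapt 3.0, HISAT2 2.2.1, SAMtools 1.13 and HTSeq 0.13.5. The annotation and strand setting are not given in the sources used here.

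Counts were tested in R 4.3.3 with edgeR 4.0.16 (TMM, filterByExpr, glmQLFit and glmQLFTest, group only, Benjamini-Hochberg over 15125 genes). Standard errors were derived from the F statistic and each gene's coefficient without a prior count, and 95% intervals from these and the fit's degrees of freedom. DESeq2 1.42.0, limma-voom 3.58.1, other scalings and filters, a replicate block and each library left out were alternatives. Same-numbered libraries did not deviate together (r of 0.069, -0.024 and 0.039). On simulated counts with 14903 genes tested, edgeR recovered 68 of 99 genes changed by 0.5 and 89 of 99 changed by 1 on the log2 scale. It also called 6 unchanged genes. Far fewer genes were changed there than the 66.6% called in the data, so that these rates do not give the power of the comparison.

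Positions came from GENCODE v44 lifted to GRCh37, and promoters from RefSeq on GRCh38.p14. The host genes and lists were chosen with earlier results of these data known. Genes named one by one are the 10 host genes, METTL3, their divergent neighbours, intronic snoRNAs with 10 or more counts in all libraries together, the 4 largest rises and falls past the threshold in each list, and the 5 genes of the most similar profile. Others were named after their values were seen. A few genes that this rule or the overlaps would name are not reported here.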

Additional observations from a re-analysis of the deposited data

How the results depend on the processing

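SNHG5, SNHG8, SNHG7 and METTL3 held direction and call at the 0.05 threshold in each of the 14 alternative fits. Their log2 fold changes ran from -0.61 to -0.35, from -0.67 to -0.44, from 0.27 to 0.49 and from -1.38 to -1.19. The count of called host genes lay between 4 and 7 in these fits, with 4 for DESeq2, and covered the same range, 4 to 7, when single libraries were left out. With a minimum absolute log2 fold change of 0.5 it was 2, SNHG5 and SNHG8, because that minimum removes small changes (over all genes it left 5920 of 10067). At an adjusted p under 0.01 the count of called host genes was 4, where 8666 of all 15125 tested genes were called. With scaling by library size alone the median of the 10 was 0.14 in place of -0.04, GAS5 stood at 0.01 (adjusted p = 0.878) and SNHG16 at 0.05 (adjusted p = 0.59). SNHG12 changed sign without vector replicate 3, at -0.03 (adjusted p = 0.819), and ranged up to 0.23 with other single libraries left out. The number of divergent neighbours called was 1 in place of 2 with upper-quartile scaling, and ranged from 1 to 2 with each library left out. The cause was not tested. The other lists' counts stayed within 1.5 times their values. With the replicate block 5 host genes were called, 2 higher and 3 lower, as without it, and no call on the 10 changed. Since the numbers do not pair the libraries, this is given only as a check. No snoRNA row passed the filter on low counts, and 7 of 23 were tested without it.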

Other observations

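The count table holds 6 further rows named SNHG that are on neither list of noncoding hosts. SNHG26 was lower in the shMETTL3 libraries, with 59, 48 and 53 counts in vector and 27, 23 and 27 counts in shMETTL3 libraries (log2 fold change -1.16, adjusted p = 4.48e-05 from edgeR). SNHG28 at -0.47 and SNHG25 at -0.83 did not pass, with adjusted p of 0.0703 and 0.0773, and SNHG21 at -0.14 held only 11 to 21 counts per library. SNHG22 and SNHG27 had too few counts to test. These rows were examined after the values of the host genes were seen.

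The pentamer GGACT, the most frequent form of the m6A consensus, was counted in the canonical transcripts of GRCh37, on the transcript strand. It occurred 6 times in SNHG8, 5 in SNHG7, 4 in SNHG15, 3 in SNHG12 and in ZFAS1, 2 in GAS5, and once in SNHG1, SNHG5 and SNHG6, and it did not occur in SNHG16. Per kb the median was 0.917 for the 10 host genes and 0.919 for the 13534 tested genes with a canonical transcript. The density ran from 0 in SNHG16 to 2.60 per kb in GAS5, neither of which passed the test. Counts and densities rest on the canonical transcript alone. It has 6166 bases in SNHG8 and 498 in SNHG16, against medians of 489 and 2459 bases for their annotated transcripts. Other transcripts were not searched. A match is a description of the sequence and gives no value for m6A, which these libraries do not measure.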
